A study of Mus musculus with 4 samples.

Results

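The clustered protocadherins are cell-surface adhesion proteins of the cadherin superfamily, encoded by 3 gene clusters that lie next to each other on mouse chromosome 18. They were taken as all rows on chromosome 18 whose name starts with Pcdha, Pcdhb or Pcdhg, which gave 58 of the 22686 genes measured. The alpha cluster held 14 genes, the beta cluster 22 and the gamma cluster 22, and all are transcribed from the plus strand. In genome build mm9 the alpha genes ran from 37089939 to 37347314 (3 joined rows that include gamma transcripts reach further), the beta genes from 37424652 to 37681073 and the gamma genes from 37821599 to 38001526.

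Each clustered protocadherin protein carries extracellular cadherin repeats and binds the same isoform on a neighbouring cell, and different combinations of isoforms give neurons distinct surface identities. Every alpha and gamma gene has its own promoter and a large variable first exon, which is spliced to constant exons that the whole cluster shares and that encode the common cytoplasmic end. Beta genes are complete in their own exon. Most promoters of the locus are used stochastically, depend on CTCF and cohesin and carry DNA methylation when silent, whereas C-type genes (Pcdhac1, Pcdhac2, Pcdhgc3, Pcdhgc4 and Pcdhgc5) are not chosen in this way. SmcHD1, a chromatin protein best known from the inactive X chromosome, is also known to act at the clustered protocadherins.

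The cells were epiblast stem cells (EpiSCs), pluripotent cells derived from female mouse embryos of embryonic day 6.5. The cross joined C57BL6/J with a hybrid of JF1 and C57BL6/J, so a strain variant can show the parental allele wherever the paternal copy is of JF1 type. There were 4 libraries, each of a different combined genotype: Smchd1 MD1/MD1 with XistdeltaA/+, Smchd1 +/+ with XistdeltaA/+, Smchd1 MD1/MD1 with Xist1lox/+, and Smchd1 +/+ with Xist1lox/+. All 4 carried a heterozygous Xist mutation, so none was wild type for both genes. Each combined genotype had 1 library, so no difference within a pair has a replicate check, and whether a library came from 1 line or a pool was not given in the sources used here.

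Across the series, allele-assigned reads (those that cover a strain variant) numbered between 7301034 and 8008500 a library. Smchd1 had 6.68 and 5.98 FPKM (an expression level scaled to transcript length and library size) in the MD1/MD1 libraries, against 27.0 and 20.9 in +/+. Xist, the long noncoding RNA of X inactivation, had 38.3 and 28.9 FPKM in the MD1/MD1 libraries, against 12.1 and 10.5 in +/+. Pou5f1, a defining gene of pluripotent cells, had 551 to 984 FPKM in the 4 libraries. Summed FPKM of 10 fibroblast markers was 124 in MD1/MD1 XistdeltaA/+ against 44.8 in +/+ XistdeltaA/+, and 60 in MD1/MD1 Xist1lox/+ against 59.1 in +/+ Xist1lox/+. For 7 macrophage markers it was 906 against 23.5 in the XistdeltaA/+ pair and 289 against 320 in the Xist1lox/+ pair. Of these sums Lyz2 alone gave 799 against 0.384 and 247 against 274 FPKM. No fibroblast marker was at 0 in any library, and 2 macrophage markers were at 0 in +/+ XistdeltaA/+. At least 2-fold higher in MD1/MD1 with XistdeltaA/+ were 5 of 9 fibroblast and 5 of 6 macrophage markers that averaged 1 FPKM or more, and with Xist1lox/+ 0 of either. Of all genes at that level 3.91% were that much higher with XistdeltaA/+ and 0.445% with Xist1lox/+.

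The comparison of Smchd1 genotypes asks whether the clusters are held down when SmcHD1 is present. The alpha and beta clusters had higher values in both MD1/MD1 libraries than in both +/+ libraries, and the gamma cluster did not. Summed FPKM of the alpha cluster was 6.07 in MD1/MD1 against 2.06 in +/+ with XistdeltaA/+, a ratio of 2.95, and 7.51 against 1.62 with Xist1lox/+, a ratio of 4.64. The beta cluster summed to 1.05 in MD1/MD1 against 0.145 in +/+ with XistdeltaA/+, and to 1.16 against 0.101 with Xist1lox/+, ratios of 7.27 and 11.5. Gamma genes summed to 26.7 in MD1/MD1 against 28.1 in +/+ with XistdeltaA/+, and to 19.8 against 23.8 with Xist1lox/+, ratios of 0.95 and 0.831. With 2 libraries against 2 a two-sided permutation test cannot go below p = 0.333, so these sums carry no test.

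Allele-assigned reads, counted in the same libraries, showed the same order for the alpha and beta clusters. Alpha genes had 203 such reads in MD1/MD1 against 67 in +/+ with XistdeltaA/+, and 133 against 41 with Xist1lox/+. Relative to library totals the ratios were 2.96 (2.24 to 3.96) and 3.48 (2.43 to 5.06), with exact binomial intervals at 95% that cover counting error only. Beta genes had 69 reads in MD1/MD1 against 8 in +/+ with XistdeltaA/+, and 52 against 4 with Xist1lox/+, ratios of 8.43 (4.05 to 20.3) and 13.9 (5.13 to 53.0). Gamma genes had 865 reads in MD1/MD1 against 692 in +/+ with XistdeltaA/+, and 429 against 478 with Xist1lox/+. The gamma ratios were 1.22 (1.10 to 1.35) and 0.962 (0.842 to 1.10), so in the first pair reads and FPKM went in opposite directions.

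**Figure D1:**
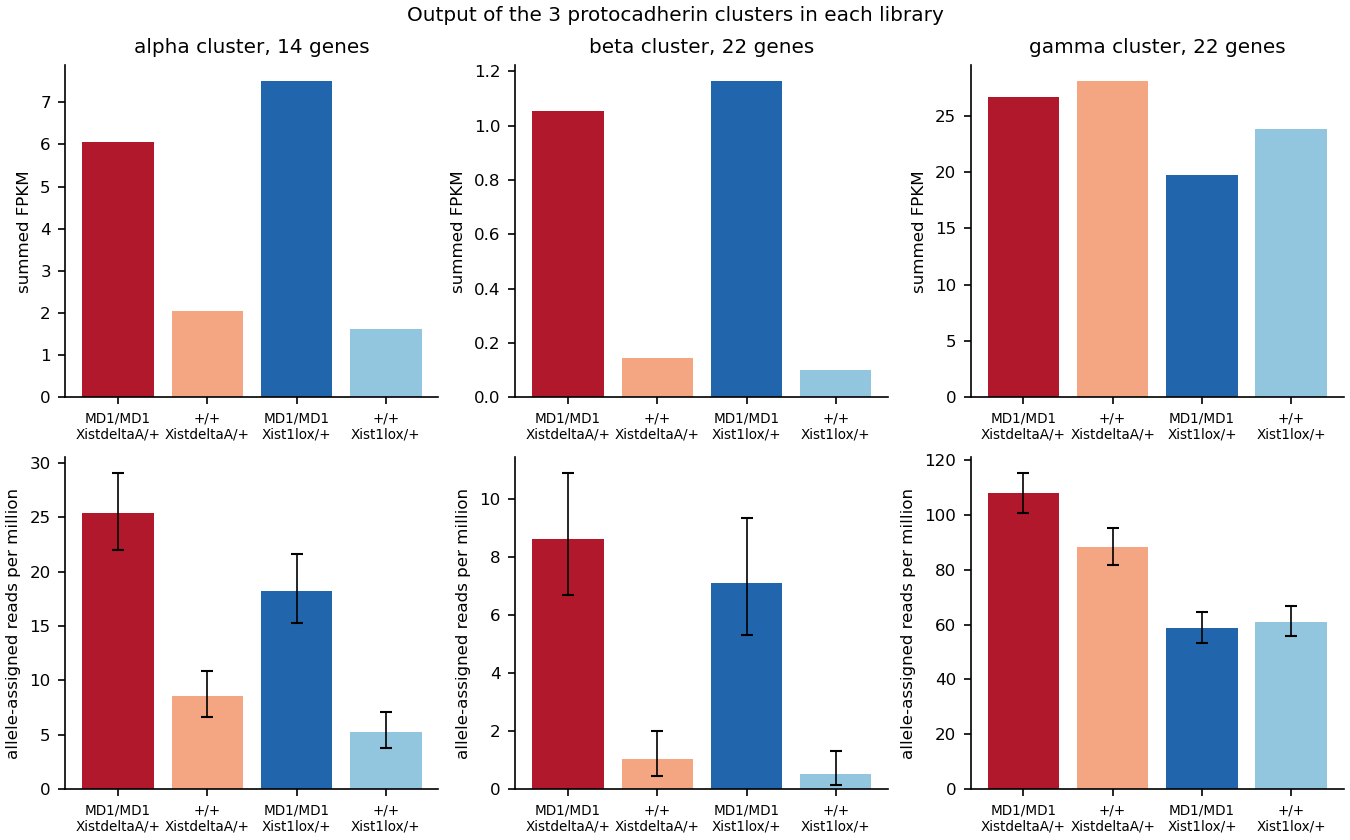
Summed FPKM (upper row) and allele-assigned reads scaled to library size (lower row, with exact Poisson intervals at 95%) of the alpha, beta and gamma clusters, 1 bar a library and no replicates. Both MD1/MD1 bars stand above both +/+ bars for alpha (FPKM 6.07 and 7.51 against 2.06 and 1.62) and beta (1.05 and 1.16 against 0.145 and 0.101), while gamma bars follow no such order.

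Alpha genes supplied most of the members that differed by 2-fold or more. Of the 14 alpha genes, 11 had both MD1/MD1 values above both +/+ values and 0 had both below. In the whole dataset 12.5% of genes had both above, and among the 3039 genes with a mean FPKM between 0.1 and 1 it was 23.4%. On the scale of log2(FPKM + 0.1), a small constant added because most members lie under 1 FPKM, the median log2 ratio of the 14 genes was 1.22 with XistdeltaA/+ and 1.75 with Xist1lox/+. The medians of all genes with a mean FPKM between 0.1 and 1 were 0.30 and 0 on that scale. In bulk RNA a higher value can mean more cells that transcribe a gene or more transcript per cell, and the libraries cannot tell these apart.

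Pcdha7 had the highest mean FPKM of the cluster, with 0.985 in MD1/MD1 against 0.349 in +/+ with XistdeltaA/+, and 1.51 against 0.190 with Xist1lox/+. Pcdha9 had 0.654 in MD1/MD1 against 0.143 in +/+ with XistdeltaA/+, and 1.08 against 0.0158 with Xist1lox/+. These 2 genes were the members of the cluster that reached 1 FPKM in any library, and for both the MD1/MD1 and +/+ values did not overlap. Their log2 ratios on the log2(FPKM + 0.1) scale were 1.27 with XistdeltaA/+ and 2.47 with Xist1lox/+ for Pcdha7, and 1.63 and 3.34 for Pcdha9 in the same order.

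The other alternate alpha genes, chosen here after their values were seen, were lower in level but mostly alike in direction. Pcdha6 had 0.674 FPKM in MD1/MD1 against 0.0779 in +/+ with XistdeltaA/+, and 0.511 against 0.0178 with Xist1lox/+. Its allele-assigned reads were few, at 7 in MD1/MD1 against 1 in +/+ with XistdeltaA/+ and 0 against 1 with Xist1lox/+, so reads do not show that difference in the second pair. Pcdha4 had 0.423 against 0.0625 FPKM in the XistdeltaA/+ pair and 0.609 against 0.0358 in the Xist1lox/+ pair, each as MD1/MD1 against +/+. With these, Pcdha3, Pcdha5, Pcdha7 and Pcdha9 made up the 6 alpha genes that were at least 2-fold higher in both pairs on the log2(FPKM + 0.1) scale, a size reached by 0.423% of all genes, by 0.6% of those averaging 0.1 FPKM or more and by 1.94% of those between 0.1 and 1. Pcdha12 departed from them: its FPKM was 0.659 in MD1/MD1 against 0.467 in +/+ with XistdeltaA/+ and 0.503 against 0.571 with Xist1lox/+, so the groups overlapped. Pcdha12 also had the highest FPKM of the cluster in both +/+ libraries.

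Taken pair by pair on that scale, 9 of 14 alpha genes were at least 2-fold higher with XistdeltaA/+ and 9 with Xist1lox/+, where 7.19% and 1.67% of all genes were. Of genes averaging 0.1 FPKM or more, 9.77% and 2.1% were that much higher, and of those between 0.1 and 1 FPKM 25.9% and 6.65%, so the XistdeltaA/+ pair had many more such genes of low level than the other. Beta genes at least 2-fold higher were 3 with XistdeltaA/+ (Pcdhb3, Pcdhb20 and Pcdhb22) and 2 with Xist1lox/+ (Pcdhb18 and Pcdhb20). Gamma genes were 1 (Pcdhgb4) and 2 (Pcdhga9 and Pcdhgb8). At least 2-fold lower were Pcdhac1 and Pcdhgb8 with XistdeltaA/+ and Pcdhga5 and Pcdhgb6 with Xist1lox/+, against 3.24% and 1.72% of all genes and 4.33% and 2.09% of those averaging 0.1 FPKM or more. No member was 2-fold lower in both pairs, as were 0.256% of all genes and 0.351% of those averaging 0.1 FPKM or more.

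The FPKM values of both C-type alpha genes overlapped between the genotypes. Pcdhac2 had 0.371 FPKM in MD1/MD1 against 0.110 in +/+ with XistdeltaA/+, and 0.114 against 0.256 with Xist1lox/+. Its allele-assigned reads did not overlap, with 15 in MD1/MD1 against 4 in +/+ with XistdeltaA/+ and 7 against 3 with Xist1lox/+. Pcdhac1 was at 0 to any useful precision in MD1/MD1 against 0.118 in +/+ with XistdeltaA/+, and at 0.123 against 0.0163 with Xist1lox/+. Pcdhac1 had 0 allele-assigned reads in all 4 libraries. The 2 C-type genes together summed to 0.371 against 0.227 in the XistdeltaA/+ pair and to 0.237 against 0.272 in the Xist1lox/+ pair, while the 12 alternate genes summed to 5.69 against 1.83 and to 7.27 against 1.35.

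Shared exons bear on these values. In GENCODE M21, which annotates a later build and was used for structure alone, all 13 annotated alpha genes share 3 exons, all 22 gamma genes share another 3, and beta genes share 0 exons. How the authors divided reads of the shared exons among the genes was not given in the sources used here, so alpha values are not independent of each other, nor are gamma values. The rows of Pcdha4, Pcdha6 and Pcdha7 each join an alpha transcript to one that ends in the gamma cluster, at 38001526, and so can hold gamma exons too. Without these 3 rows the alpha sum was 3.98 in MD1/MD1 against 1.57 in +/+ with XistdeltaA/+ and 4.88 against 1.38 with Xist1lox/+. Of the 11 alpha rows left, 8 had both MD1/MD1 FPKM values above both +/+ values, against 12.5% of all genes. On the log2(FPKM + 0.1) scale 3 of the 11 were at least 2-fold higher in both pairs, against 0.423% of all genes. Allele-assigned reads were not repeated across a whole cluster: in every library but MD1/MD1 XistdeltaA/+ at least 1 gamma gene had 0 such reads, and Pcdhac1 had 0 in all 4. A read could still be counted in several alpha or gamma rows, which the intervals of summed reads do not cover.

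**Figure D2:**
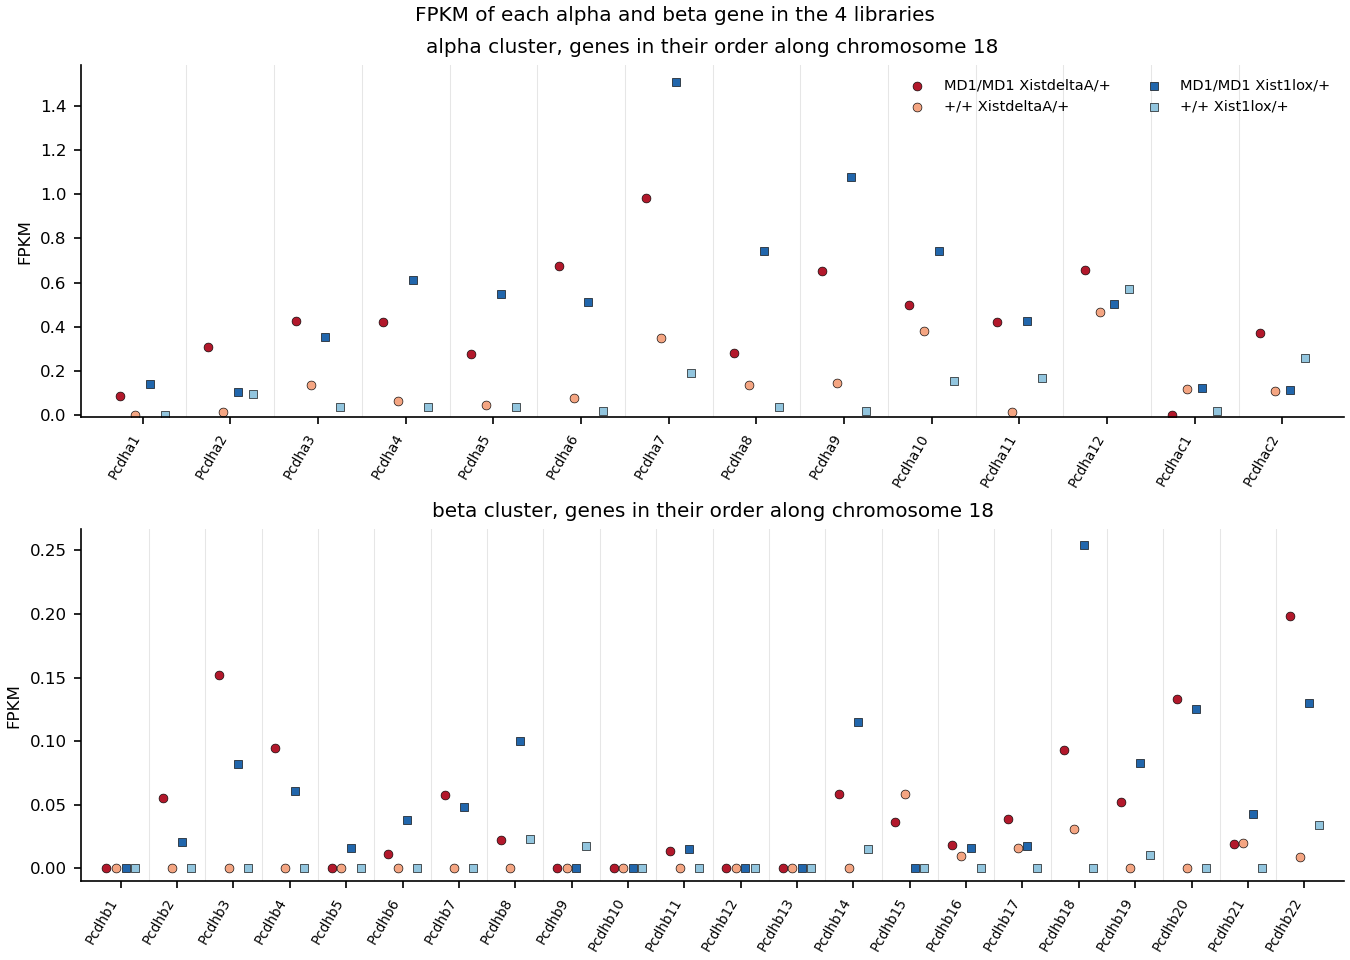
FPKM of the 14 alpha genes (upper panel) and the 22 beta genes (lower panel) in the 4 libraries, in their order along the chromosome, with MD1/MD1 in dark and +/+ in pale colours. Dark points lie above pale ones from Pcdha1 to Pcdha11, and overlap with them at Pcdha12, Pcdhac1 and Pcdhac2. Most beta genes lie at 0 in the pale colours.

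Beta genes were close to silent, which limits what can be said of each. No beta gene had a mean FPKM of 0.1 or more, and 4 of 22, Pcdhb1, Pcdhb10, Pcdhb12 and Pcdhb13, were listed at 0 FPKM in all 4 libraries. In the MD1/MD1 libraries 6 and 6 beta genes were listed at 0, against 16 and 17 in the +/+ libraries. Of the 12 genes at 0 in both +/+ libraries, 7 had a value above 0 in both MD1/MD1 libraries: Pcdhb2, Pcdhb3, Pcdhb4, Pcdhb6, Pcdhb7, Pcdhb11 and Pcdhb20, named after their values were seen. Among all 5705 genes of the table at 0 in both +/+ libraries, 2.8% were above 0 in both MD1/MD1 libraries. Genes chosen at 0 in +/+ cannot be lower in MD1/MD1, so the direction of these counts was set by that choice.

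Pcdhb18 had the highest mean FPKM of the beta cluster, with 0.0930 in MD1/MD1 against 0.0313 in +/+ with XistdeltaA/+, and 0.254 in MD1/MD1 with Xist1lox/+, where it was listed at 0 in +/+. Pcdhb22 had 0.198 FPKM in MD1/MD1 against 0.00880 in +/+ with XistdeltaA/+, and 0.130 against 0.0345 with Xist1lox/+. Pcdhb20 had 0.133 and 0.125 FPKM in the MD1/MD1 libraries and was listed at 0 in both +/+ libraries. Its allele-assigned reads were 17 and 10 in MD1/MD1 and 0 and 0 in +/+, and it was the 1 beta gene at least 2-fold higher in both pairs on the log2(FPKM + 0.1) scale. In all, 13 of 22 beta genes had both MD1/MD1 values above both +/+ values and 0 had both below, where 16.8% of genes with a mean FPKM above 0 and under 0.1 had both above. Since beta genes share no exons, their reads cannot pass from one beta gene to another through a constant exon.

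The gamma cluster was the most expressed, and a single gene carried much of its FPKM. Pcdhgc3, a C-type gene, had 12.0 FPKM in MD1/MD1 against 16.5 in +/+ with XistdeltaA/+, and 8.52 against 10.1 with Xist1lox/+. That was 44.8% of the gamma sum in MD1/MD1 against 58.8% in +/+ with XistdeltaA/+, and 43.1% against 42.6% with Xist1lox/+. Both libraries with XistdeltaA/+ were higher than both with Xist1lox/+, and the Smchd1 genotypes overlapped. Limma, a linear model across all genes with Smchd1 genotype and Xist mutation as terms, gave Pcdhgc3 a log2 change of -0.33 ± 0.18 (SE) on the log2(FPKM + 1) scale, with a Benjamini-Hochberg adjusted p of 0.937.

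Of the gamma-A genes, Pcdhga11 had 2.86 FPKM in MD1/MD1 against 2.35 in +/+ with XistdeltaA/+, and 2.70 against 2.2 with Xist1lox/+. Pcdhga10 had 2.24 against 1.55 FPKM in the XistdeltaA/+ pair and 1.58 against 1.56 in the Xist1lox/+ pair, each as MD1/MD1 against +/+. The groups did not overlap for either gene, but the differences were small, and limma gave adjusted p-values of 0.940 and 0.948. Pcdhga2 had 1.19 FPKM in MD1/MD1 against 0.840 in +/+ with XistdeltaA/+, and 0.969 against 1.43 with Xist1lox/+, so it was higher in one pair and lower in the other.

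The gamma-B genes named by their level had lower FPKM in MD1/MD1, but not fewer allele-assigned reads in both pairs. Pcdhgb6 had 0.610 FPKM in MD1/MD1 against 0.963 in +/+ with XistdeltaA/+, and 0.516 against 1.63 with Xist1lox/+. Pcdhgb7 had 1.03 against 1.24 FPKM in the XistdeltaA/+ pair and 1.01 against 1.78 in the Xist1lox/+ pair, each as MD1/MD1 against +/+. Pcdhgb6 had 12 allele-assigned reads in MD1/MD1 against 9 in +/+ with XistdeltaA/+ and 10 against 30 with Xist1lox/+, and Pcdhgb7 had 25 against 19 and 13 against 15. In FPKM these were the 2 of 22 gamma genes with both MD1/MD1 values below both +/+ values, a share near the 12.4% of all genes that had both below, and in reads 0 gamma genes had both below. In FPKM Pcdhga6, Pcdhga10 and Pcdhga11 were the 3 with both above, a share near the 12.5% of all genes. In reads 5 gamma genes had both above. The share of all genes in reads is not given here, so neither count in reads is taken as a result. Pcdhgc5 had 1.08 against 0.756 FPKM with XistdeltaA/+ and 0.813 against 1.11 with Xist1lox/+, each as MD1/MD1 against +/+, and its groups overlapped.

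Without Pcdhgc3 the gamma sum was 14.7 in MD1/MD1 against 11.6 in +/+ with XistdeltaA/+, and 11.2 against 13.7 with Xist1lox/+. The direction of the gamma FPKM sum in the XistdeltaA/+ pair thus rested on that gene. In allele-assigned reads the gamma ratios without Pcdhgc3 were 1.76 (1.51 to 2.05) with XistdeltaA/+ and 1.02 (0.852 to 1.22) with Xist1lox/+. The XistdeltaA/+ pair was also the one in which summed fibroblast and macrophage markers were higher in MD1/MD1, and the part of those cells in the gamma values was not tested. Their part in the alpha and beta values of that pair was not tested either. In the Xist1lox/+ pair fibroblast markers summed to 60 in MD1/MD1 against 59.1 in +/+ and macrophage markers to 289 against 320. The part of those cells in the alpha and beta values was not tested there either.

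**Figure D3:**
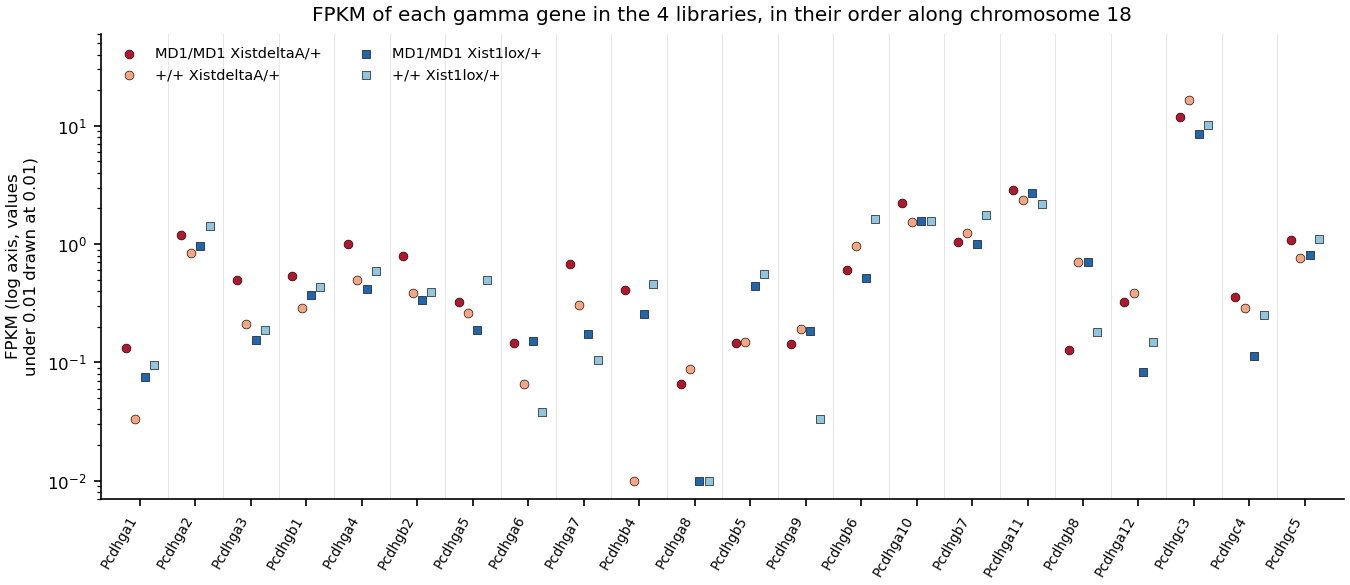
FPKM of the 22 gamma genes on a log axis in the 4 libraries, in their order along the chromosome, with MD1/MD1 in dark and +/+ in pale colours. Pcdhgc3 stands highest at 8.52 to 16.5 FPKM, and dark and pale points overlap for all but 5 genes.

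No member passed the model across all genes. On the log2(FPKM + 1) scale, over genes averaging 1 FPKM or more, limma tested 5 members, all of the gamma cluster (Pcdhga2, Pcdhga10, Pcdhgb7, Pcdhga11 and Pcdhgc3), and called 0 of them at an adjusted p under 0.05, with 0 at an unadjusted p under 0.05. Of the 11471 genes tested, 0.0349% were called and 3.26% had an unadjusted p under 0.05. On the log2(FPKM + 0.1) scale, over genes averaging 0.1 FPKM or more, a setting added after the values were seen, limma tested 12 alpha and 20 gamma genes and again called 0, where 0.0345% of 14510 genes were called. There 6 alpha genes had an unadjusted p under 0.05, all of them higher, and 0 gamma genes did, against 2.07% of all tested genes that were higher at that p. The filter itself admits alpha genes through their MD1/MD1 values, so this count is given as a description.

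In that setting Pcdha6 had a log2 change of 2.25 ± 0.57 and Pcdha9 of 2.49 ± 0.64 (SE, limma adjusted p = 0.953 for both). Pcdha4, Pcdha5, Pcdha7 and Pcdha11 completed the 6, with changes of 2.04, 1.82, 1.87 and 1.57. Without the joined rows of Pcdha4, Pcdha6 and Pcdha7, 3 alpha genes had an unadjusted limma p under 0.05. edgeR's quasi-likelihood test on allele-assigned reads tested 17 members and called 0, with 4 at an unadjusted p under 0.05 (Pcdha3, Pcdha4, Pcdha9 and Pcdhb20), where 0.043% of genes were called and 2.62% had such a p. Its read filter also admits genes through their MD1/MD1 reads alone, such as Pcdhb20 with 17 and 10 reads against 0 and 0. The edgeR count is therefore a description too. DESeq2 on the same reads called 0 members as well, with 4 at an unadjusted p under 0.05, where 0.143% of genes were called and 2.04% had such a p. Limma under 5 further settings called 0 members, and of all genes it called 0.0207% with a lower filter, 0% with no filter, 0.0262% after quantile normalization or with a pseudocount of 0.1, and 0.0174% with a pseudocount of 0.01. Of the 5 gamma genes averaging 1 FPKM or more, 0 were at least 2-fold higher or lower in either pair on the log2(FPKM + 1) scale. Of all genes at that level 3.91% were higher and 1.82% lower with XistdeltaA/+, and 0.445% higher and 0.375% lower with Xist1lox/+. With genes down to 0.1 FPKM on that scale, 2 members, Pcdha7 and Pcdha9, were at least 2-fold higher with Xist1lox/+, where 0.372% of genes were. With 1 residual degree of freedom, a p that misses the threshold does not show that values did not differ.

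**Figure D4:**
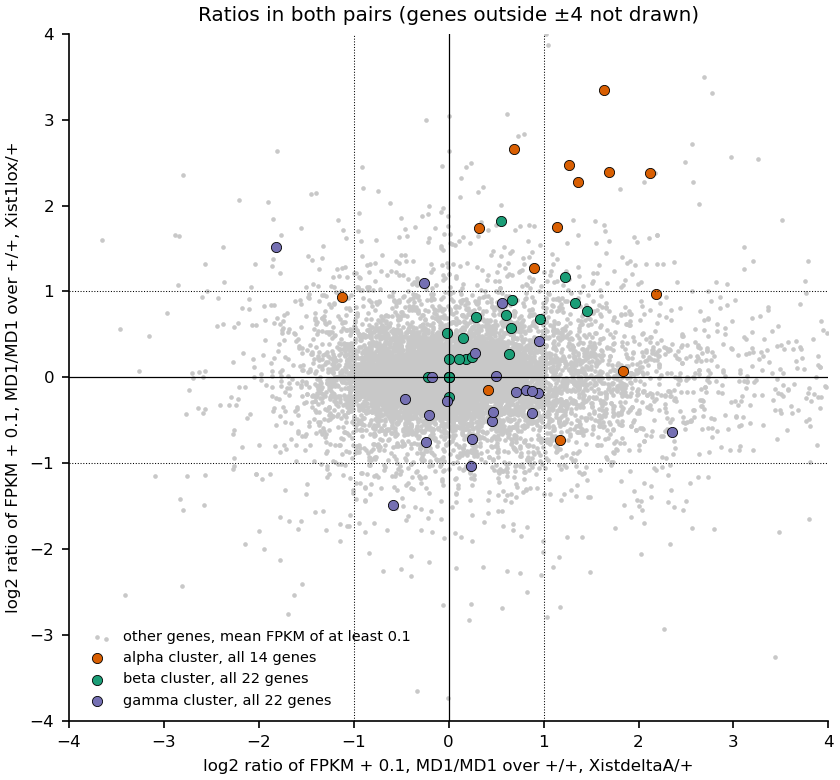
Log2 ratios of FPKM + 0.1, MD1/MD1 over +/+, in the XistdeltaA/+ pair (horizontal) and the Xist1lox/+ pair (vertical), for all alpha, beta and gamma genes and, in grey, other genes averaging 0.1 FPKM or more. Dotted lines mark 2-fold. Alpha genes gather at the upper right, where 6 of 14 pass 2-fold in both pairs (3 of 11 without the joined rows). Beta genes lie nearer the origin and gamma genes spread around it.

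The parental alleles at the locus were visible in 2 of the 4 libraries, and these were not of the same Smchd1 genotype. Among 20 neighbouring genes other than Cd14, the pooled paternal share of allele-assigned reads was 0.687% in MD1/MD1 XistdeltaA/+ against 45.3% in +/+ XistdeltaA/+. It was 46.2% in MD1/MD1 Xist1lox/+ against 0.287% in +/+ Xist1lox/+. The region therefore carried maternal-type alleles in MD1/MD1 XistdeltaA/+ and +/+ Xist1lox/+, and both kinds in the other two libraries. Within each pair the Smchd1 genotype and the alleles of the region differed together, so within a pair their parts in the FPKM values cannot be told apart. The 1 residual degree of freedom of limma sets these same 2 kinds of library against each other. For members its SE and p therefore rest in part on any difference between the region's alleles, and not on replicates.

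Among the members, shares followed the region. Over the alpha genes with at least 10 reads, the paternal share in MD1/MD1 XistdeltaA/+ was 0% of 159 reads (0 to 2.29). In +/+ XistdeltaA/+ it was 50% of 40 reads (33.8 to 66.2). It was 48.6% of 107 reads (38.8 to 58.5) in MD1/MD1 Xist1lox/+ against 0% of 27 reads (0 to 12.8) in +/+ Xist1lox/+. These shares rest on 6 and 2 alpha genes in the XistdeltaA/+ pair, and on 7 and 1 (Pcdha12) in the Xist1lox/+ pair, each as MD1/MD1 against +/+. The gamma share was 8.93% (7.09 to 11.1) against 51.5% (47.6 to 55.5) with XistdeltaA/+ and 47.2% (42.1 to 52.4) against 2.82% (1.46 to 4.87) with Xist1lox/+. Intervals for shares are exact Clopper-Pearson intervals at 95%. Beta genes gave a share in MD1/MD1 libraries alone, with 0 paternal of 33 reads with XistdeltaA/+ and 4 of 10 reads with Xist1lox/+. Alpha transcripts in MD1/MD1 thus came from both parental alleles in the library where both could be seen.

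By Fisher's exact test (two-sided, adjusted over all genes compared), all 5 members with at least 20 reads in both XistdeltaA/+ libraries had a lower paternal share in MD1/MD1, where 19.9% of all genes did. All 4 tested in the Xist1lox/+ pair had a higher share in MD1/MD1, where 20.7% of all genes did. That test compares these libraries, not the genotypes. The members tested lie in the same region as the neighbouring genes, so these counts are not separate results. Pcdha12 was at 0% in MD1/MD1 against 24% in +/+ with XistdeltaA/+ (adjusted p = 0.00257) and at 60% against 0% with Xist1lox/+ (adjusted p = 2.46e-06, both by Fisher's exact test). Pcdhga11 was at 0.641% against 58.5% with XistdeltaA/+ and at 61.7% against 0% with Xist1lox/+, and Pcdhga10 at 1.69% against 33.3% and at 43.5% against 0%, each as MD1/MD1 against +/+. Pcdhga4, with 20 reads in +/+ Xist1lox/+ but only 10 in MD1/MD1 Xist1lox/+ and 17 in +/+ XistdeltaA/+, was not tested, and was at 0% against 35.3% and at 30% against 0%.

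Single genes varied around equal shares where both alleles were visible. In +/+ XistdeltaA/+ Pcdha10 had 93.3% paternal reads of 15 (68.1 to 99.8) and Pcdha12 24% of 25 (9.36 to 45.1). In MD1/MD1 Xist1lox/+ Pcdha4 was at 8.33% of 12 reads (0.211 to 38.5), and Pcdha7 at 66.7% of 15 (38.4 to 88.2). Pcdha3 had 57.1% of 21 reads and Pcdha9 30.0% of 10 in that library. Pcdhgb8, chosen after its values were seen, had 83.3% of 18 reads (58.6 to 96.4) in MD1/MD1 Xist1lox/+ and 90% of 10 reads (55.5 to 99.7) in +/+ XistdeltaA/+. Its FPKM was 0.128 in MD1/MD1 against 0.705 in +/+ with XistdeltaA/+, and 0.701 against 0.179 with Xist1lox/+. It was thus higher in the libraries with a visible paternal allele, as Pcdhac1 was. Pcdhac2 and Pcdhgb4, which also differed by at least 1.5-fold in opposite directions, had lower FPKM in those libraries. The part of the alleles in these values was not tested.

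Paternal reads of some gamma genes were present where the region was of maternal type. Pcdhgc3 had 13.3% of 398 reads (10.1 to 17.1) in MD1/MD1 XistdeltaA/+ and 4% of 225 (1.85 to 7.46) in +/+ Xist1lox/+, above the neighbouring genes with 0.687% (0.550 to 0.847) and 0.287% (0.203 to 0.393). In MD1/MD1 XistdeltaA/+ Pcdhga7 had 34.8% of 23 reads and Pcdhgc5 35.0% of 20. Among the neighbours Cd14, which encodes a macrophage surface receptor, had 28.7% in MD1/MD1 XistdeltaA/+ and 25.7% in +/+ Xist1lox/+, and Fchsd1 had 16.9% and 5.56%. Fibroblast markers summed to 124 FPKM and macrophage markers to 906 FPKM in the first of these libraries, and to 59.1 and 320 FPKM in the second. The part of such cells in these reads was not tested.

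**Figure D5:**
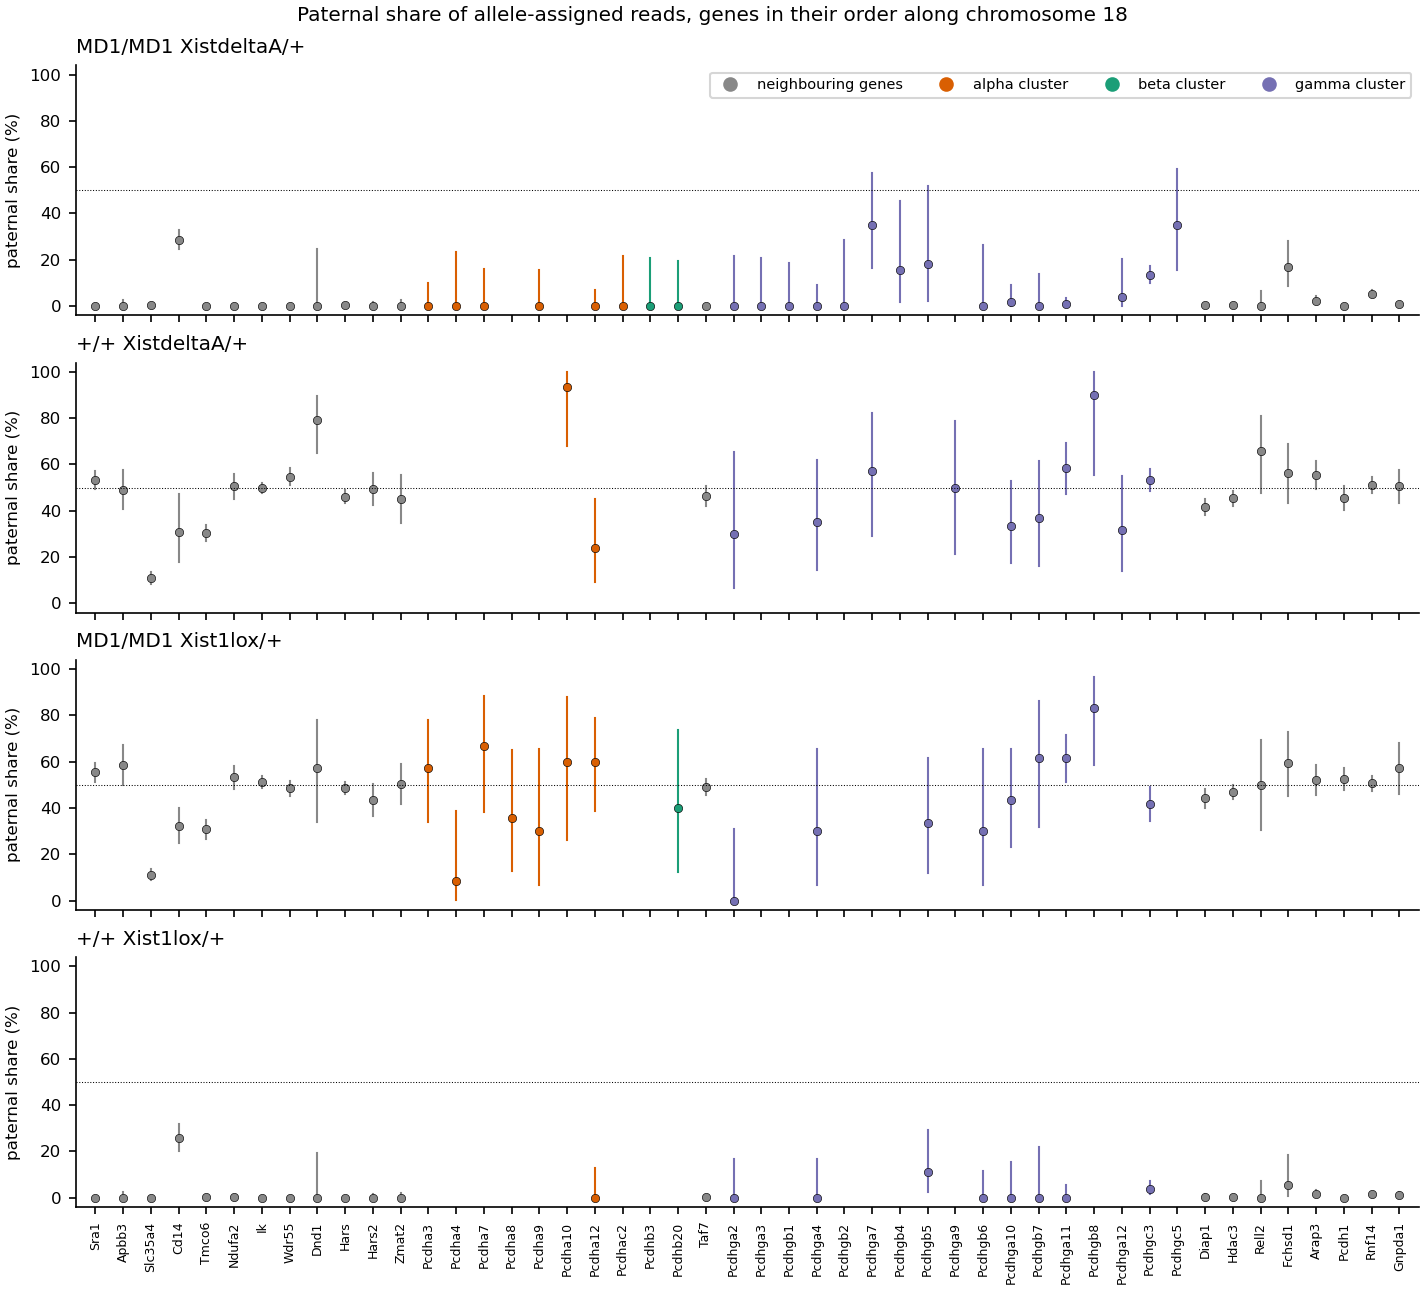
Paternal share of allele-assigned reads with exact Clopper-Pearson intervals at 95%, 1 panel a library, for neighbouring genes and clustered protocadherins with at least 10 reads, in chromosome order. The dotted line marks 50%. Shares lie near 0% in MD1/MD1 XistdeltaA/+ and +/+ Xist1lox/+, apart from Cd14, Fchsd1 and some gamma genes such as Pcdhgc3 at 13.3% and 4%, and mostly around 50% in the other two libraries.

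Genes around the clusters were measured at higher levels. Of 22 neighbours averaging 1 FPKM or more, 0 differed by 2-fold in the same direction in both pairs, where 0.131% of all genes were higher and 0.113% lower. Limma called 0 of them, with 1 at an unadjusted p under 0.05, and edgeR and DESeq2 called 0. Their median log2 ratios on the log2(FPKM + 1) scale were 0.10 with XistdeltaA/+ and -0.099 with Xist1lox/+. Taf7, a subunit of the general transcription factor TFIID whose gene lies between the beta and gamma clusters, had 25.4 FPKM in MD1/MD1 against 21.2 in +/+ with XistdeltaA/+ and 27.6 against 25.9 with Xist1lox/+. Hdac3, a histone deacetylase gene beyond the gamma cluster, had 62.6 against 50.7 and 64.7 against 71.4 FPKM in the same order. Ndufa2, Ik and Sra1 had the highest mean FPKM of the neighbours. In that order Ndufa2 had 163 against 162 and 191 against 204 FPKM. Ik had 67.1 against 103 and 76.9 against 83.0, and Sra1 had 63.6 against 80.5 and 78.9 against 90.8.

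Of 12 protocadherin genes outside the clusters 3 averaged 1 FPKM or more, and 0 of these were 2-fold higher or lower in both pairs. Limma, edgeR and DESeq2 called 0 of the 3, and limma gave 0 an unadjusted p under 0.05. Pcdh1, on the same chromosome, had 24.7 FPKM in MD1/MD1 against 14.9 in +/+ with XistdeltaA/+, and 18.1 against 15.6 with Xist1lox/+. Pcdh8 had 7.45 against 1.53 FPKM in the XistdeltaA/+ pair and 6.04 against 5.56 in the Xist1lox/+ pair. Pcdh7 had 3.23 against 2.71 and 1.97 against 0.967 FPKM, each as MD1/MD1 against +/+.

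Of 26 factors known to organise or silence the locus, 24 averaged 1 FPKM or more, and Smchd1 was the single one at least 2-fold lower in both pairs, with a log2 change of -1.76 ± 0.18 (SE, limma adjusted p = 0.173). Limma called 0 of the 24, with 1 at an unadjusted p under 0.05, edgeR called 0, and DESeq2 called 1, which was Smchd1. Trim28, a corepressor, had 399 FPKM in MD1/MD1 against 364 in +/+ with XistdeltaA/+, and 443 against 448 with Xist1lox/+. The DNA methyltransferase Dnmt3b had 320 against 144 FPKM in the XistdeltaA/+ pair and 268 against 242 in the Xist1lox/+ pair. Rad21, a cohesin subunit, had 70.1 against 102 and 74.6 against 77.8 FPKM, each as MD1/MD1 against +/+. Of the 3 kinases Ptk2, Ptk2b and Fyn, which are known to bind clustered protocadherins, 0 were 2-fold higher or lower in either pair, and their highest level was 31.2 FPKM for Ptk2 in +/+ XistdeltaA/+.

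Neural markers were examined because neurons transcribe the clusters strongly. Of 11 markers 6 averaged 1 FPKM or more, 0 of these were 2-fold higher or lower in either pair, and Dcx, a gene of immature neurons, was at 0 in 3 libraries and at 0.0113 FPKM in +/+ Xist1lox/+. Summed over the 11, FPKM was 168 in MD1/MD1 against 186 in +/+ with XistdeltaA/+ and 162 against 236 with Xist1lox/+. Stmn2, which encodes a neuronal microtubule regulator, had 70.0 against 125 FPKM in the XistdeltaA/+ pair and 78.4 against 152 in the Xist1lox/+ pair. Without Stmn2 the other 10 markers summed to 97.9 FPKM in MD1/MD1 against 61.4 in +/+ with XistdeltaA/+ and to 83.9 against 83.9 with Xist1lox/+, so the direction of the neural sum rested on that gene. The part of such cells in the alpha and beta values was not tested. Primed epiblast markers summed to 1832 in MD1/MD1 against 1327 in +/+ with XistdeltaA/+, and to 1884 against 2035 with Xist1lox/+. Primitive endoderm markers summed to 8.53 against 7.88 and to 6.56 against 6.26 FPKM in the same order.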

How the data were processed

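Strand-specific mRNA libraries were prepared from total RNA, as the labels' protocols say. Build mm9, Cufflinks 2.2.1 and Cuffdiff appear in the submitters' processing notes, without their role. The aligner, the variants and any use of strand in counting were not given in the sources used here. Per the file headers, the deposited values are an allele-assigned read count, the fraction of those reads that are paternal (present from 10 reads) and FPKM, for every gene in every library. Fraction times count was whole within 1e-06 for 100% of 45860 values. A further 6 columns of other samples were not used. Starts count from 0, as checked on 1117 olfactory receptor rows, and 1 was added to those printed.

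The members and gene lists were chosen with earlier results of these data known. FPKM was tested with limma 3.58.1 with a trend (pseudocount 1, genes averaging 1 FPKM or more, Smchd1 genotype plus Xist mutation). Alternatives were edgeR 4.0.16 and DESeq2 1.42.0 on the read counts and other pseudocounts, filters and scalings. Pairs were compared by ratio and Fisher's exact test (scipy 1.17.1, at least 20 reads). limma, edgeR, DESeq2 and Fisher's test were tried on simulated data. Named members reached 1 FPKM in any library, were 2-fold different in both pairs, or led their cluster in mean FPKM or allele-assigned reads. Named genes of other lists had the highest mean FPKM. Others, such as Pcdhac1, Pcdhac2, Taf7, Hdac3 and Dcx, were named outside these rules. Counting intervals cover counting error only, since reads carry no molecular identifiers. Sequences are not printed here.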

Additional observations from a re-analysis of the deposited data

Results flagged for a closer look

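Values that went in opposite directions in the 2 pairs are given here, as MD1/MD1 minus +/+ with XistdeltaA/+ and then with Xist1lox/+. With 1 library per combined genotype the difference between pairs was not tested. The paternal share differed by -50.0 and 48.6 points for the alpha cluster and by -42.6 and 44.4 points for the gamma cluster, as the shares of the neighbouring genes did. On the log2(FPKM + 0.1) scale, members that differed by at least 1.5-fold in opposite directions were Pcdhac1 (-1.12 and 0.94), Pcdhac2 (1.17 and -0.73), Pcdhgb4 (2.36 and -0.64) and Pcdhgb8 (-1.82 and 1.52). Of these, Pcdhac1 had at most 0.123 FPKM and 0 allele-assigned reads in any library.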

How the results depend on the processing

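Of 99 alternative values, 76 kept their direction and side of the threshold, or stayed within the counting interval or 1.5 times the count. Under no alternative did limma, edgeR or DESeq2 call a member. Alpha and beta sums kept their direction under all alternatives tried. The gamma sum in the XistdeltaA/+ pair, a log2 ratio of -0.07, reversed to 0.35 without Pcdhgc3, to 0.29 in allele-assigned reads and to 0.34 without C-type genes (added after seeing the data), and in the Xist1lox/+ pair reads gave -0.057 against -0.27. Counts of members past 2-fold depend on low values, since 0 passed at a mean FPKM of at least 1. Higher in both pairs were 6 with pseudocount 0.1 and a mean FPKM of at least 0.1, and 7 with no filter, both added after seeing the data. Of all genes in these 2 settings 0.6% and 0.423% were. The filter of 0.1 admits alpha genes through their MD1/MD1 values. In each pair the 2 settings gave 10 and 13 higher members. Of all genes 9.77% and 7.19% were higher with XistdeltaA/+, and 2.1% and 1.67% with Xist1lox/+. Lower were 1 and 2 with XistdeltaA/+, against 4.33% and 3.24% of all genes, and 2 and 2 with Xist1lox/+, against 2.09% and 1.72%. A filter of 0.1 alone gave 2 higher with Xist1lox/+, against 0.372% of all genes. With the row of most reads alone, the alpha share was 24% in +/+ XistdeltaA/+ (24% with rows of at least 20 reads) and 60% in MD1/MD1 Xist1lox/+ (58.7%), and the gamma share was 13.3% in MD1/MD1 XistdeltaA/+ and 41.5% in MD1/MD1 Xist1lox/+. At a minimum of 50 reads Fisher's test called 2 lower members with XistdeltaA/+ and 2 higher with Xist1lox/+, since fewer were tested. Otherwise the cause was not tested. Taking off the smallest read count of a cluster changes nothing where it is 0, and could not be computed for gamma genes in MD1/MD1 XistdeltaA/+. No paired analysis was possible because the labels give no replicate numbers, other than by Xist mutation, which limma already held as a term and which defines the pairs compared. Leaving out a library leaves no residual degree of freedom. Depth limits the beta cluster, at 4 to 69 reads a library.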
